A study of Mus musculus with 6 samples.

Results

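Many aldehyde dehydrogenases oxidise reactive aldehydes to acids, though not every member of the family does. The 10 genes described here encode members that work mainly in mitochondria or in the handling of amino acids and one-carbon units: Aldh2, Aldh1b1, Aldh1l1, Aldh1l2, Aldh4a1, Aldh5a1, Aldh6a1, Aldh7a1, Aldh9a1 and Aldh18a1. They were taken by name, as every probe that carries a member's gene name on the array, which gave 12 of 55681 probes. All 10 genes were kept among the 17283 genes analysed, and 8 of the 10 were well above background on all 6 arrays. Aldh1b1 and Aldh5a1 were well above background on 5, and their exception was the same array.

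Gene expression was measured in mouse embryonic fibroblasts (connective tissue cells grown from embryos) of ICR strain on 6 single-colour Agilent arrays. The genotypes were wild type, Clk/Clk (mutant for Clock, which encodes an activator of the circadian clock) and Per2m/m (mutant for Per2, which encodes a repressor of that clock). Cells of each genotype had received either a mock transfection or a vector for expression of H-Ras, an oncogenic GTPase, and SV40T, a viral protein that blocks the p53 and RB tumour suppressors. Each of the 6 groups held 1 array, so there was no repeat of any group, and having so few arrays limits how precise any value below can be. The sources used here do not give whether each RNA came from a clone, a pool of cells or several embryos. For the transfected Per2m/m sample the source name gives H-Ras only, while the treatment label gives both genes.

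Values below are levels, meaning log2 of a probe's processed signal minus the 75th percentile of its array, and log2 differences between levels. A difference of 1 on this scale is 2-fold. Levels of different probes were set against each other only in the summed signals of marker lists and where a gene had more than 1 probe. The scanner software gave a ratio of 2 arrays an error of 0.20 (log2) for most members, which covers spot noise and not the spread between cultures. Transfected minus mock within a genotype is called the response, and it has no test. Where 1 array of a pair was not well above background, the difference is given as a lower bound ("at least N-fold"). A bound holds for this scaling only. Counts of genes at least 2-fold apart use the measured level of the dimmer array, even where it was not well above background. This holds for lists and all genes alike, so some counted list genes have a bound under 2-fold or none.

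The array of transfected Per2m/m cells differed from the rest. Its correlation with each other array across genes was 0.854 to 0.892, whereas the other arrays reached 0.958 to 0.981 with their closest array. The share of spots well above background was 49.3% on it and 53.5% to 57.2% on the others. Of 4 sex-linked mouse genes (Xist, Ddx3y, Eif2s3y, Uty), 0 were well above background there, against 3 on the mock Per2m/m array and 3 or 4 on the others. Xist was at -1.02 and -0.95 on the mock and transfected wild type arrays, and was not well above background on either Clk/Clk array. Ddx3y, Eif2s3y and Uty were well above background on both Clk/Clk arrays. The gene missing on the mock Per2m/m array was Uty. Of 10 fibroblast markers, 9 or 10 were well above background on every array, and Lum was the absent one on the transfected wild type and Per2m/m arrays. Their levels differed more than their detection. The wild type response held 1 marker at least 2-fold higher and 4 lower (median -0.66), beside 7.44% and 11.9% of all genes. The Clk/Clk response held 1 and 1 (median -0.15), beside 3.74% and 4.18%. The Per2m/m response held 0 higher and 6 lower (median -1.39, Lum among the lower with a bound of 1.40-fold), beside 18.6% and 20.6%. In it Thy1 was at -7.76, Col3a1 at -3.59 and Dcn at -2.92, but S100a4 at 0.84 and Col1a2 at 0.49. The summed signal of the list, in multiples of the 75th percentile, was 1500 on the mock and 1539 on the transfected Per2m/m array. The wild type responses of Dcn and Thy1 were -5.86 and -3.34. Per2 was well above background on all arrays, with a level of -0.97 on the mock Per2m/m array and -2.82 on the transfected one, against -3.36 and -2.38 in wild type. The response of the Hras probe was -0.17 for wild type, 0.64 for Clk/Clk and -1.33 for Per2m/m. The sources used here do not give whether that probe can detect the vector's H-Ras, so it checks nothing about the transfection. The part of these values in the results that rest on either array was not tested.

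By way of background, the enzymes fall into groups by substrate. Aldh2 and Aldh1b1 oxidise acetaldehyde and other small or lipid-derived aldehydes in the mitochondrion. Aldh1l1 in the cytosol and Aldh1l2 in the mitochondrion oxidise 10-formyltetrahydrofolate to carbon dioxide and tetrahydrofolate, with the production of NADPH. Aldh18a1 makes pyrroline-5-carboxylate from glutamate on the way to proline and ornithine, and Aldh4a1 converts pyrroline-5-carboxylate back to glutamate. Aldh5a1 oxidises succinic semialdehyde, the last step of GABA breakdown. Aldh6a1 acts on methylmalonate semialdehyde in valine and thymine breakdown, Aldh7a1 on an aldehyde of the lysine breakdown route and on betaine aldehyde, and Aldh9a1 on aminoaldehydes from polyamine and carnitine metabolism. Several genes of folate and amino acid metabolism are known targets of ATF4, a transcription factor of the amino acid stress response.

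What each probe reads decides what a level means. The Aldh2 probe is shown because its 60 bases span 554 bases of the genome (mm9, chr5:122022137-122022690, minus strand), so it lies across a splice junction and reads spliced transcript. The Aldh5a1 probe (mm9, chr13:25003412-25003471, minus strand) is shown up to its stop codon, in capitals, because the largest difference among the 10 genes rests on it and because it reads the end of the coding sequence.

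Aldh2 probe: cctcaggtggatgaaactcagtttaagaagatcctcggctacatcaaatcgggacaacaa

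Aldh5a1 probe, coding part: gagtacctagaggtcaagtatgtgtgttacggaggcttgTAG

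The other probes lie in mm9 at chr4:45816960-45817019 (Aldh1b1), chr6:90549091-90549150 (Aldh1l1), chr10:82950571-82950630 (Aldh1l2), chr4:139205420-139205479 (Aldh4a1), chr12:85771835-85771894 (Aldh6a1), chr1:169298245-169298304 (Aldh9a1) and chr19:40624730-40624767 (Aldh18a1, where the files place 38 of the 60 bases). Aldh6a1 and Aldh7a1 each had a second probe. The second Aldh7a1 probe was well above background on 0 of the 6 arrays and was not used.

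Because 2 of the genotypes carry clock mutations, promoters were searched on both strands for the E-box CACGTG, which CLOCK binds, and also for the antioxidant response element core TGACNNNGC and the amino acid response element core TGATGNAAN. RefSeq promoters (GRCm38.p6, 250 bases before to 50 after the start) were matched for 7 of the 10 genes, as 8 promoters. The E-box was found in the promoter of Aldh18a1, starting at -59 relative to the transcription start. The antioxidant response element core was found in that of Aldh9a1, starting at -87. The promoters of Aldh1b1, Aldh1l1, Aldh4a1, Aldh5a1 and Aldh6a1 held 0 matches to any of the 3 motifs. Of 32851 promoters of the same length, 7.15% held the E-box, 12.4% the antioxidant response element core and 3.95% the amino acid response element core. The 250 bases before the start of both matching promoters are printed 5′ to 3′ with the motif in capitals.

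Aldh18a1 (GRCm38.p6, chr19:40588464-40588713, minus strand): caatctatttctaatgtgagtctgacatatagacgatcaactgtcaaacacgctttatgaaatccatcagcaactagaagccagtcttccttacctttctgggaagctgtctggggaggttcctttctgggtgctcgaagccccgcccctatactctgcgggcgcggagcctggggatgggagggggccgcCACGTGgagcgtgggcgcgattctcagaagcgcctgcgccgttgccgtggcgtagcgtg

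Aldh9a1 (GRCm38.p6, chr1:167349741-167349990, plus strand): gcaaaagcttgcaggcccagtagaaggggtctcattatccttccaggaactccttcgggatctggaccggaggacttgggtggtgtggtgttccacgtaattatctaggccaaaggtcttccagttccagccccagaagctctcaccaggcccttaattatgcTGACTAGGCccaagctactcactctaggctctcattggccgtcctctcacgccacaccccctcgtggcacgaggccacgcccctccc

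Aldh18a1 had 23 CpG dinucleotides and 58.3% GC over its 300 bases, and Aldh9a1 had 9 and 59.0%. The median over all promoters was 7 CpG dinucleotides. A match is a description of these letters and not evidence of binding.

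**Figure D1:**
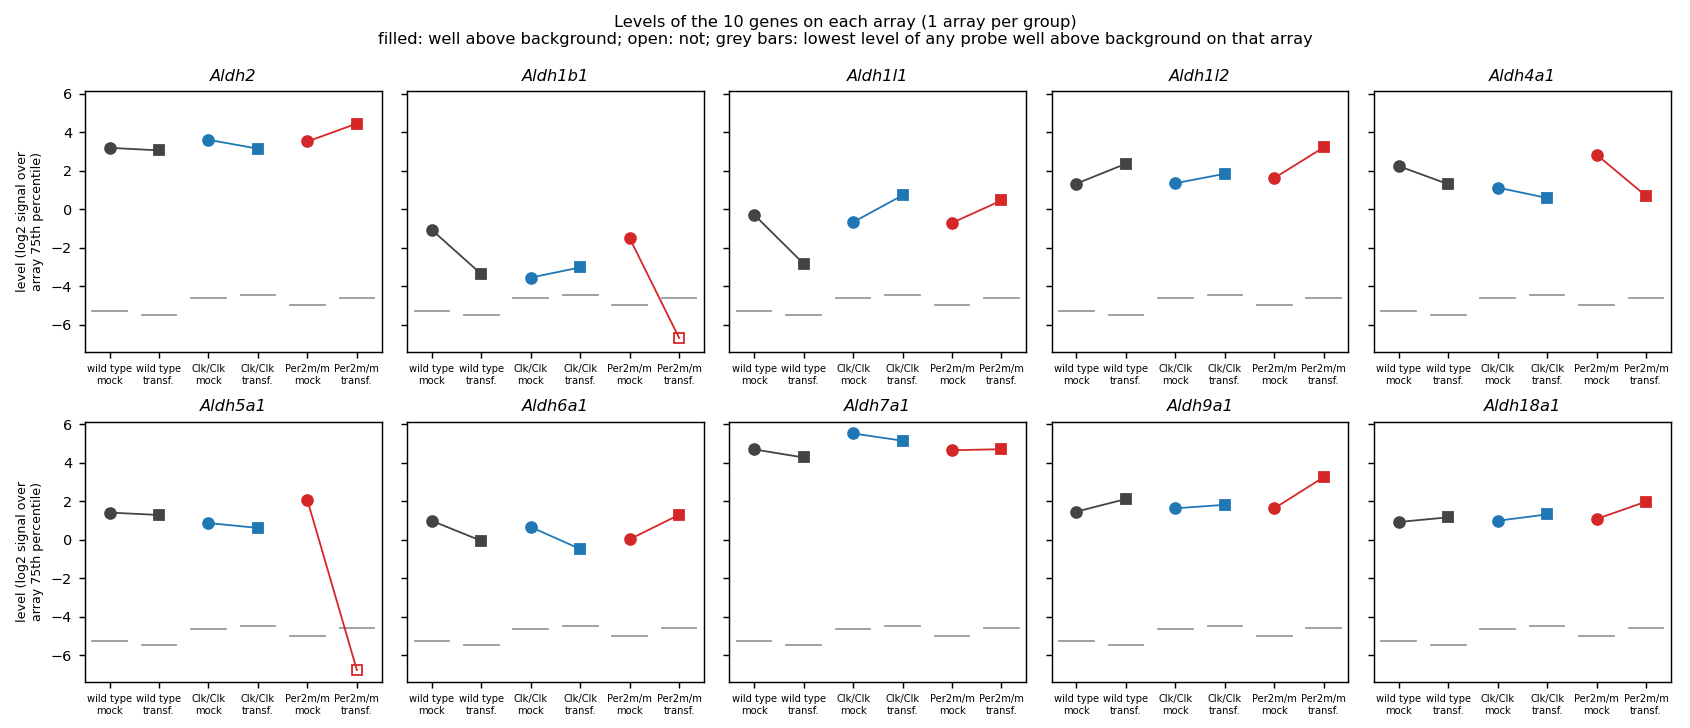
Level of each of the 10 genes (log2 signal over the array's 75th percentile, vertical axis) on the 6 arrays, with circles for mock and squares for transfected cells, lines joining both arrays of a genotype, and open symbols where the probe was not well above background. Grey bars mark the lowest level of any probe well above background on that array. Aldh1b1 and Aldh5a1 on the transfected Per2m/m array, at -6.68 and -6.77, are the open symbols.

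The question the mock and transfected pairs address is how expression of H-Ras and SV40T altered these genes in each genotype. In wild type cells, Aldh1l2 was 2.05-fold higher on the transfected array, while Aldh1l1, Aldh1b1 and Aldh6a1 were 5.83-fold, 4.90-fold and 2.05-fold lower. In Clk/Clk cells, Aldh1l1 was 2.63-fold higher and Aldh6a1 2.21-fold lower. In Per2m/m cells, Aldh9a1, Aldh1l2, Aldh6a1 and Aldh1l1 were 3.08-fold, 3.02-fold, 2.41-fold and 2.24-fold higher, and Aldh5a1, Aldh1b1 and Aldh4a1 were at least 99.7-fold, at least 8.52-fold and 4.42-fold lower. With normexp and quantile normalization the responses of Aldh5a1 and Aldh1b1 were -4.81 and -1.99 (log2). These were smaller in size than the bounds, which are -6.64 and -3.09 in log2. Thus 4 of 10 genes were at least 2-fold apart in wild type cells, where 19.4% of all genes were. The count was 2 of 10 in Clk/Clk cells, against 7.92% of all genes, and 7 of 10 in Per2m/m cells, against 39.3%. By direction, the background for the wild type response was 7.44% higher and 11.9% lower, that for Clk/Clk 3.74% and 4.18%, and that for Per2m/m 18.6% and 20.6%. The median response of the 10 genes was -0.28 for wild type, -0.04 for Clk/Clk and 0.92 for Per2m/m, beside -0.01, 0.02 and 0.12 for all genes. Scaling arrays to their median instead moved the all-gene median to 0.31 for wild type and 0.40 for Per2m/m, and the members' medians to 0.04 and 1.20.

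The additive model of genotype and transfection, fitted with limma across all genes on 2 residual degrees of freedom, called 0 of 17283 genes (0.00%) for transfection and 0.00% for either genotype. At an unadjusted p under 0.05 it held 798 genes for transfection, 385 for Per2m/m against wild type and 1600 for Clk/Clk against wild type. Among the 10 genes 2 were below that limit for transfection, Aldh1l2 and Aldh4a1, and 0 for either genotype. The limma coefficient of Aldh1l2 was 1.04 ± 0.33 (SE, 3 genotypes; adjusted p = 0.696), with a positive response in 3 of 3 genotypes. That of Aldh4a1 was -1.21 ± 0.42 (SE, 3 genotypes; adjusted p = 0.696), with a negative response in 3 of 3 genotypes. Without the transfected Per2m/m array these coefficients were 0.76 and -0.74, the latter a move of over 1.5 times. So none of the differences described here passed a test, and each is a ratio of 2 arrays. A response of the same sign in all 3 genotypes was seen for 5 of the 10 genes (Aldh1l2, Aldh4a1, Aldh5a1, Aldh9a1 and Aldh18a1) and for 32.0% of all genes, although the wild type sign of Aldh5a1 turned under median scaling. In 3 of the 10 genes (Aldh1l2, Aldh9a1 and Aldh18a1) all 3 transfected arrays were above all 3 mock arrays, which held for 6.58% of all genes, and 0 of the 10 showed the reverse, which held for 4.39%.

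**Figure D2:**
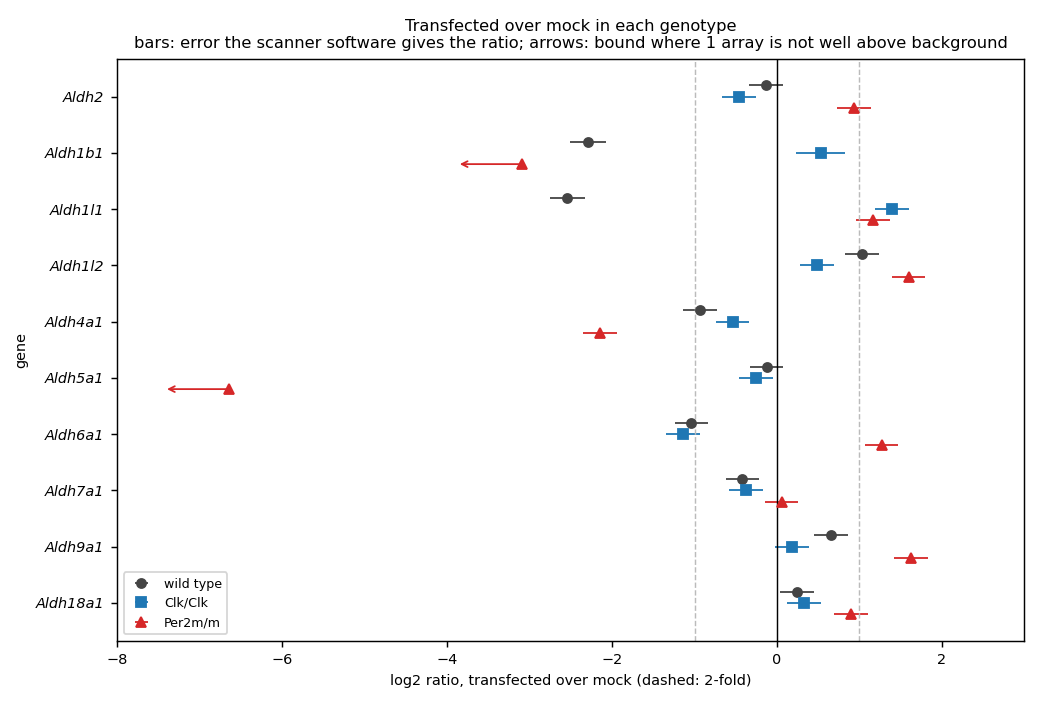
Response of each gene (log2 ratio of transfected over mock, horizontal axis) for the 3 genotypes, 1 pair of arrays each. Bars are the scanner software's error of the ratio, dashed lines mark 2-fold, and arrows start at the bound where 1 array was not well above background. Aldh1l2, Aldh9a1 and Aldh18a1 lie above 0 and Aldh4a1 and Aldh5a1 below 0 in all 3 genotypes, while Aldh1l1, Aldh6a1, Aldh1b1, Aldh2 and Aldh7a1 lie on both sides.

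The acetaldehyde enzymes Aldh2 and Aldh1b1 differed from each other. Aldh2 had levels of 3.20 mock and 3.06 transfected on the wild type pair, 3.61 and 3.15 on the Clk/Clk pair, and 3.53 and 4.46 on the Per2m/m pair. The transfected Per2m/m array was the highest of the 6 for Aldh2, and the other arrays lay within 0.55 of each other. Its response was -0.13 for wild type, -0.46 for Clk/Clk and 0.93 for Per2m/m, and the wild type value turned to 0.18 when arrays were scaled to their median. Aldh1b1 had levels of -1.07 and -3.36 on the wild type pair, -3.54 and -3.01 on the Clk/Clk pair, and -1.50 and -6.68 on the Per2m/m pair, where the last was not well above background. Aldh1b1 was therefore higher on the mock arrays of wild type and Per2m/m cells than on the other arrays, which included both Clk/Clk arrays. Among mock cells it was 5.55-fold lower in Clk/Clk than in wild type. With normexp and quantile normalization this log2 difference was -1.49 in place of -2.47, and the wild type response of Aldh1b1 was -1.20 in place of -2.29. The response of Aldh2 exceeded that of Aldh1b1 by 2.16 in wild type and was 0.99 below it in Clk/Clk cells (difference -0.99).

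More macrophage markers were detected on the mock arrays where Aldh1b1 was highest. Of the 9 macrophage markers kept, 8 and 9 were well above background on the mock wild type and Per2m/m arrays, and 5 or 6 on each of the others. Lyz2 (lysozyme) had a level of -0.77 on the mock wild type array and 0.77 on the mock Per2m/m array, and of the other arrays it was well above background only on the transfected Per2m/m array, at -1.63. Tyrobp, a signalling adaptor of myeloid cells, was at -1.59 and 0.21 on those mock arrays and was not well above background on the other 4. Other markers of the list did not share that order. Mrc1, a mannose receptor, was at least 3.35-fold higher on the transfected than on the mock wild type array, Cd14 had responses of 1.00 and 0.98 for wild type and Per2m/m, and Itgam was highest on the Clk/Clk arrays. The summed signal of the list, in multiples of the 75th percentile, did not follow that order: it was 44.5 and 48.5 on those mock arrays, 60.7 and 56.3 on the Clk/Clk arrays, and 23.7 and 16.6 on the transfected wild type and Per2m/m arrays. Most of that sum came from Itgam on every array, so it largely repeats the Itgam levels. The part of macrophage RNA in the Aldh1b1 values was not tested, and in these bulk samples fewer cells of a type and less RNA per cell cannot be told apart.

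Among the folate enzymes, mitochondrial Aldh1l2 was higher on the transfected than on the mock array of every genotype. Its levels were 1.34 mock and 2.37 transfected on the wild type pair, 1.36 and 1.85 on the Clk/Clk pair, and 1.63 and 3.22 on the Per2m/m pair. The 3 mock arrays lay within 0.29 of each other and all below the 3 transfected arrays, so mock and transfected levels did not overlap. The responses were 1.03, 0.49 and 1.59. Cytosolic Aldh1l1 had levels of -0.28 and -2.82 on the wild type pair, -0.67 and 0.73 on the Clk/Clk pair, and -0.70 and 0.46 on the Per2m/m pair. Its mock levels lay within 0.43 of each other, and the transfected wild type array was the lowest of the 6 while both mutant transfected arrays were the highest. The responses were thus -2.54 for wild type, 1.40 for Clk/Clk and 1.17 for Per2m/m. Their signs were kept under every scaling tried, with -1.58 for wild type under normexp and quantile normalization. Among transfected cells Aldh1l1 was 11.7-fold higher in Clk/Clk and 9.74-fold higher in Per2m/m than in wild type. The response of Aldh1l2 exceeded that of Aldh1l1 by 3.58 for wild type and 0.43 for Per2m/m, and was below it in Clk/Clk cells (difference -0.91).

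Aldh1l1 is abundant in liver and in astrocytes, so markers of both cell types were read on the same arrays. Of the 5 hepatocyte markers kept, 5 were well above background on the transfected Clk/Clk array and 1 on each of the other 5 arrays. There Alb, Ahsg and Fabp1 (albumin, fetuin-A and a fatty acid binding protein) had levels of -1.62, -1.19 and -1.44, and they were not well above background on any other array. The summed hepatocyte signal was 1.34 times the 75th percentile on that array and 0.125 to 0.176 on the others. The summed signal of 6 astrocyte markers was also highest on the transfected Clk/Clk array, at 10.0 against 1.66 to 3.41 on the others, but most of it came from S100b. The Clk/Clk responses of the list held 1 marker at least 2-fold higher and 1 lower (median 0.16). Slc1a3, a glutamate transporter, was at -1.17, Aqp4 at -0.70, Gja1 at -0.23 and Gfap at 0.55. Slc1a2 was not well above background on either Clk/Clk array. The Gfap level was also highest on the transfected Clk/Clk array, at -3.32. S100b, a calcium-binding protein, had levels of -0.18 and -5.05 on the wild type pair, 0.91 and 3.17 on the Clk/Clk pair, and 0.96 and -4.47 on the Per2m/m pair. The part of either in the Aldh1l1 level of transfected Clk/Clk cells was not tested. On the transfected Per2m/m array, where Aldh1l1 was at 0.46, neither Alb, Ahsg and Fabp1 nor S100b were well above background. Of the 6 astrocyte markers 3 were, with Gja1 at 0.65, Aqp4 at -4.15 and Gfap at -4.45. The part of either cell type in the Aldh1l1 level there was not tested.

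**Figure D3:**
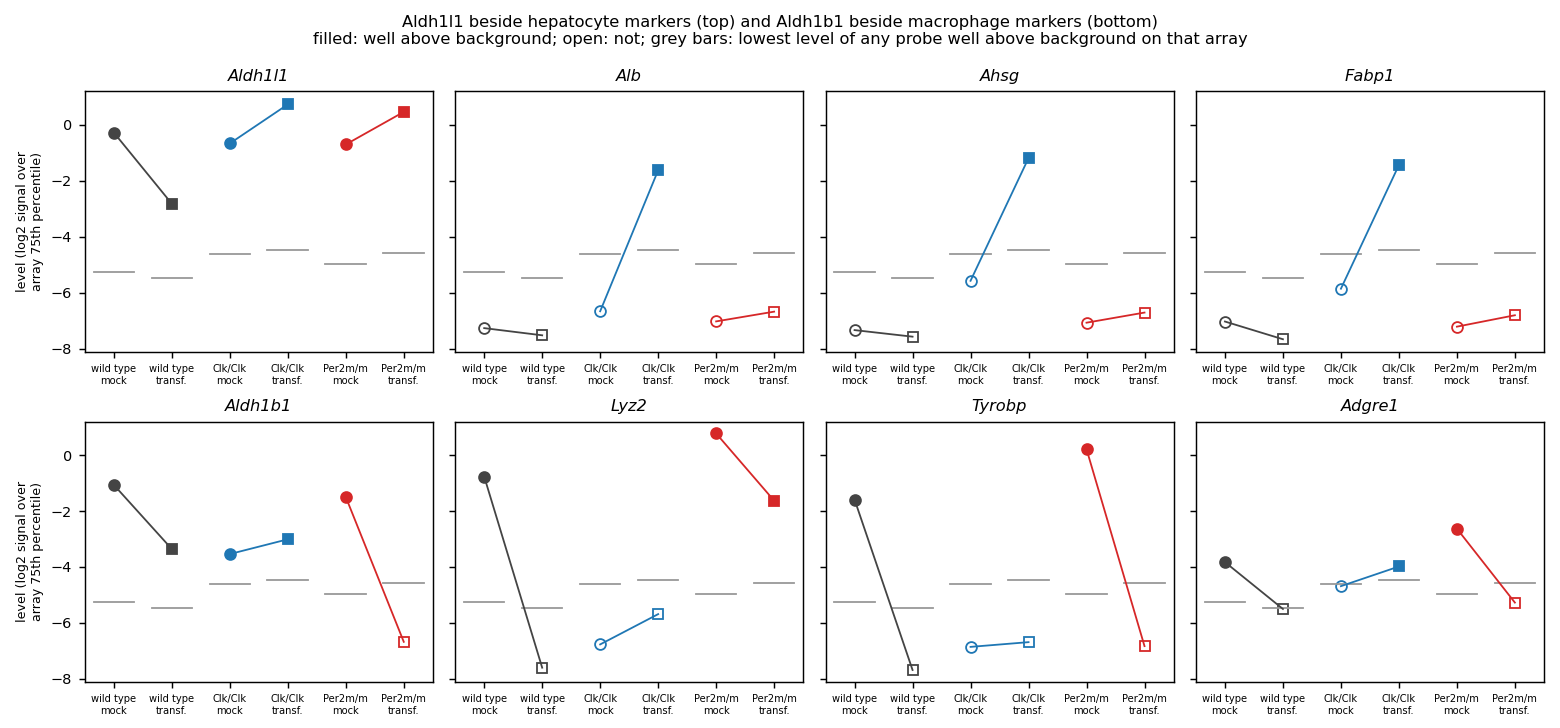
Levels (log2 signal over the array's 75th percentile, vertical axis) of Aldh1l1 beside 3 hepatocyte markers and of Aldh1b1 beside 3 macrophage markers on the 6 arrays, with open symbols where a probe was not well above background. Alb, Ahsg and Fabp1 are filled on the transfected Clk/Clk array only, and Tyrobp on the mock wild type and mock Per2m/m arrays only.

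The proline enzymes differed in opposite directions within each genotype. Aldh18a1, the synthetic enzyme, had levels of 0.91 and 1.16 on the wild type pair, 0.98 and 1.31 on the Clk/Clk pair, and 1.07 and 1.97 on the Per2m/m pair. Mock and transfected levels of Aldh18a1 did not overlap, though the wild type response of 0.24 was close to the error of 0.20 that the software gives a ratio. Aldh4a1, which acts in proline breakdown, had levels of 2.25 and 1.31 on the wild type pair, 1.13 and 0.59 on the Clk/Clk pair, and 2.84 and 0.70 on the Per2m/m pair. It was lower on the transfected array of each genotype, but the mock Clk/Clk level lay below the transfected wild type level. The response of Aldh18a1 exceeded that of Aldh4a1 by 1.18 for wild type, 0.87 for Clk/Clk and 3.05 for Per2m/m. Both signs were kept under every scaling tried.

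Aldh5a1, the GABA enzyme, carried the largest difference among the 10 genes. Its levels were 1.40 and 1.28 on the wild type pair, 0.86 and 0.61 on the Clk/Clk pair, and 2.05 and -6.77 on the Per2m/m pair. The mock Per2m/m array was the highest of the 6, and the transfected Per2m/m array was not well above background. On the measured pairs of wild type and Clk/Clk cells the responses were -0.12 and -0.25, and the wild type value turned to 0.19 when arrays were scaled to their median. Among transfected cells Aldh5a1 was at least 58.3-fold lower in Per2m/m than in wild type. Over the scalings tried the smallest size of that difference was -4.02 (log2), against a bound of -5.87. The limma coefficient for transfection was -3.06 ± 2.10 (SE, 3 genotypes; adjusted p = 0.696), and it was -0.19 without the transfected Per2m/m array. The coefficient of -3.06 uses the level of -6.77, which was not well above background. With normexp and quantile normalization the coefficient was -1.76.

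Aldh6a1 of valine breakdown had levels of 0.97 and -0.06 on the wild type pair, 0.65 and -0.49 on the Clk/Clk pair, and 0.02 and 1.29 on the Per2m/m pair. It was lower on the transfected array in wild type and Clk/Clk cells, by -1.04 and -1.14, and higher in Per2m/m cells, by 1.27. Its second probe (mm9, chr12:85772801-85772860) was dimmer, with a response of -1.43 for wild type and 0.99 for Per2m/m, and was at least 1.34-fold lower on the transfected Clk/Clk array than on its mock array. Both probes thus gave the same sign in each genotype, although only the first passed 2-fold in Clk/Clk and Per2m/m cells.

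The lysine and aminoaldehyde enzymes showed smaller ranges or a single direction. Aldh7a1 had levels of 4.68 and 4.26 on the wild type pair, 5.51 and 5.13 on the Clk/Clk pair, and 4.64 and 4.69 on the Per2m/m pair. Both Clk/Clk arrays were above the other 4, and the limma coefficient for Clk/Clk against wild type was 0.85 ± 0.32 (SE, 2 arrays of each genotype; adjusted p = 0.552). It was 0.36 when arrays were scaled to their median. Its responses were under 2-fold in all genotypes, at -0.42, -0.38 and 0.06, and the last turned to -0.17 in the authors' deposited table. Aldh9a1 had levels of 1.45 and 2.11 on the wild type pair, 1.63 and 1.80 on the Clk/Clk pair, and 1.62 and 3.25 on the Per2m/m pair. The 3 mock arrays of Aldh9a1 lay within 0.17 of each other and below the 3 transfected arrays. The responses were 0.65, 0.18 and 1.62, the Clk/Clk value being within the software error of 0.20.

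The genotype comparisons ask how a clock mutation altered these genes before and after transfection. They share the wild type arrays with each other and with the wild type response, so their values are given side by side. Clk/Clk and wild type arrays also differed in Xist, and the part of that difference in these values was not tested. Among mock cells 0 of 10 genes differed at least 2-fold between Per2m/m and wild type, where 8.88% of all genes did (4.39% higher, 4.49% lower), and the differences ran from -0.95 for Aldh6a1 to 0.65 for Aldh5a1. Between mock Clk/Clk and wild type cells 2 of 10 differed, Aldh1b1 by -2.47 and Aldh4a1 by -1.11, beside 21.0% of all genes (10.5% higher, 10.6% lower). Among transfected cells 6 of 10 differed between Per2m/m and wild type, beside 30.9% of all genes. Of these Aldh1l1, Aldh2, Aldh6a1 and Aldh9a1 were higher, by 3.28, 1.40, 1.35 and 1.14 (14.7% of all genes were higher), and Aldh5a1 and Aldh1b1 were lower, by at least 58.3-fold and at least 2.35-fold (16.2% were lower). Over the scalings tried the smallest size of the Aldh1b1 difference was -1.09 (log2), against a bound of -1.23. Between transfected Clk/Clk and wild type cells 1 of 10 differed, Aldh1l1, beside 24.8% of all genes (13.8% higher, 11.0% lower). This last count depended on scaling: when arrays were scaled to their median, which moved the all-gene median from -0.10 to -0.75, it was 5. The transfected Per2m/m array held the highest level of 5 of the 10 genes and the lowest of 2, and for all genes these shares were 33.8% and 25.4%.

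**Figure D4:**
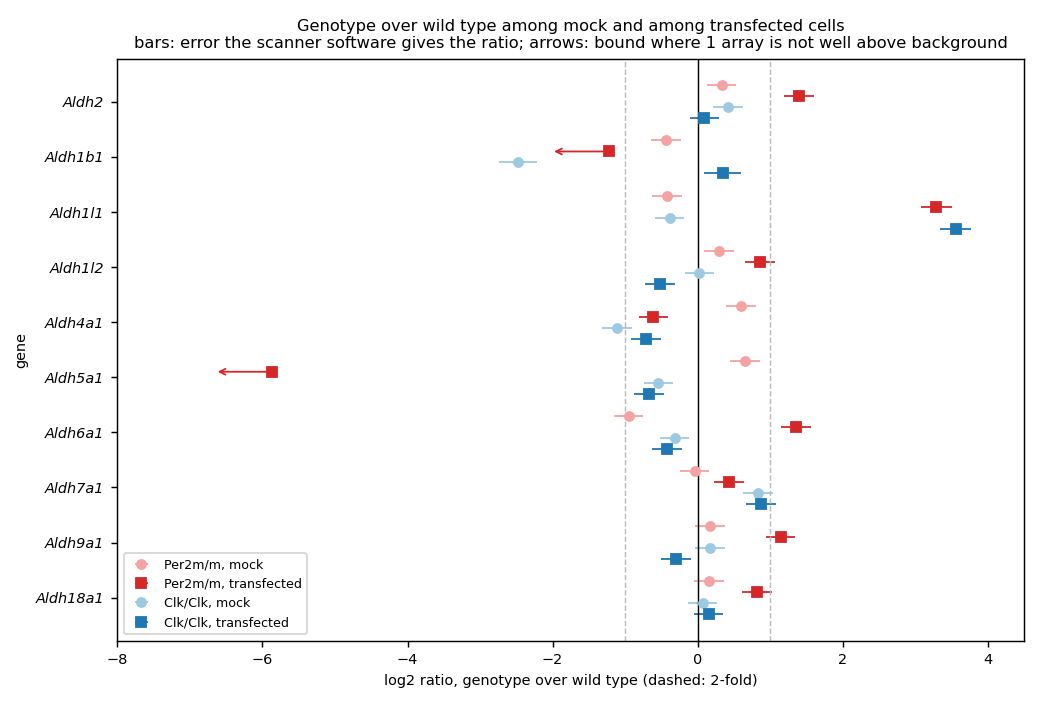
Difference of Per2m/m and Clk/Clk from wild type (log2 ratio, horizontal axis) for each gene among mock cells (pale circles) and transfected cells (dark squares), 1 array per group. Bars are the scanner software's error, dashed lines mark 2-fold, and arrows start at a bound. Aldh1l1 is at 3.28 and 3.55 in transfected Per2m/m and Clk/Clk cells and at -0.43 and -0.39 in mock cells.

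Other genes of the pathways these enzymes belong to were read from lists of which limma called 0 genes in any coefficient. Of 18 measured genes of proline, ornithine and glutamate metabolism, the Per2m/m response held 5 that were at least 2-fold higher and 4 that were lower, with a median of 0.09 that turned to -0.11 under another scaling, and 1 was higher and 1 lower in wild type. These and the list counts that follow stand beside all-gene shares of 18.6% higher and 20.6% lower for Per2m/m, 7.44% and 11.9% for wild type, and 3.74% and 4.18% for Clk/Clk, and the Per2m/m counts of the proline list lie near them. On the proline route, Prodh, whose enzyme precedes Aldh4a1 in proline breakdown, was at least 9.76-fold lower on the transfected Per2m/m array, while its wild type and Clk/Clk responses were 0.44 and 0.17. Pycr1, which completes proline synthesis after Aldh18a1, had responses of 0.83 for wild type, -0.36 for Clk/Clk and 2.37 for Per2m/m, and was chosen after its values were seen. Ass1, which makes argininosuccinate, had a Per2m/m response of -4.11.

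In the GABA list, 0 of 7 measured genes were at least 2-fold higher and 2 lower in wild type, and 1 was higher and 3 lower in Per2m/m cells, with medians of -0.31 and -0.62. The first of these turned to 0.01 when arrays were scaled to their median. The gene counted as higher in Per2m/m cells, Slc6a11, had a bound of 1.90-fold. Abat, the transaminase that makes the substrate of Aldh5a1, had levels of 0.31 and -2.15 on the wild type pair, 0.53 and -0.05 on the Clk/Clk pair, and -0.43 and -4.29 on the Per2m/m pair. Its responses of -2.46, -0.58 and -3.85 were negative in every genotype. The transporter gene Slc6a12 was lower by at least 28.6-fold on the transfected wild type array and by at least 7.64-fold on the transfected Per2m/m array.

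Of 23 measured genes of the folate one-carbon cycle, 9 were at least 2-fold higher and 1 lower in wild type, 1 higher and 0 lower in Clk/Clk, and 10 higher and 2 lower in Per2m/m cells. The medians were 0.40, 0.31 and 0.59. Of all genes, 7.44% were higher in the wild type response, 3.74% in the Clk/Clk response and 18.6% in the Per2m/m response, and the Clk/Clk count of 1 is near its share. Shmt1, which moves a one-carbon unit from serine to tetrahydrofolate in the cytosol, had responses of 1.84 for wild type and 1.99 for Per2m/m. Folr1, a folate receptor, had responses of -2.06 and -2.59 in wild type and Per2m/m cells. In wild type cells Aldh1l2 thus differed in the direction of most counted genes of this list, and Aldh1l1 did not.

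Of 32 ATF4 targets and related genes of the amino acid stress response, 20 were at least 2-fold higher and 3 lower on the transfected Per2m/m array, with a median response of 1.37, beside 18.6% higher and 20.6% lower among all genes. The counts were 3 higher and 0 lower in wild type and 2 higher and 0 lower in Clk/Clk cells, with medians of 0.30 and 0.33, beside 7.44% and 3.74% higher among all genes. The glycine transporter gene Slc6a9 and the pseudokinase gene Trib3 had Per2m/m responses of 4.34 and 4.13, and Vldlr, a lipoprotein receptor gene, had -4.75. This list gave the highest median of the pathway lists in Per2m/m cells under every scaling tried, from 1.11 to 1.65, and all of it rests on the array that stood apart.

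The remaining lists were mixed, with Per2m/m counts for the valine and amine lists that were near or below the all-gene shares of 18.6% higher and 20.6% lower. Of 26 measured genes of valine, isoleucine and leucine breakdown, 0 were at least 2-fold higher and 1 lower in wild type, and 4 were higher and 4 lower in Per2m/m cells. In that list Mccc2, a subunit of the leucine breakdown carboxylase, was at least 10.72-fold lower on the transfected Per2m/m array, and Hadh, of fatty acid oxidation, had a response of 1.42. Of 9 lysine breakdown genes, 2 were higher and 4 lower in Per2m/m cells, but Crym (-2.12) and Hykk (-2.01) among the lower had no bound. There Aass, the first enzyme of lysine breakdown, had a response of -4.51 in wild type and was lower by at least 24.7-fold on the transfected Per2m/m array. Of 8 genes of alcohol, acetaldehyde and acetate metabolism, 3 were higher and 1 lower in Per2m/m cells. Adh7, an alcohol dehydrogenase that also oxidises retinol, had a response of 1.64 for wild type, 1.20 for Clk/Clk and 4.65 for Per2m/m, and Adh1 was at least 12.9-fold lower in wild type. Of 14 genes of amine and polyamine oxidation and carnitine synthesis, 3 were higher and 2 lower in Per2m/m cells, and Maob, a monoamine oxidase, was lower after transfection by at least 23.3-fold for wild type and by at least 22.4-fold for Per2m/m. The higher genes include Chdh, whose bound was 1.45-fold.

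Of 10 other aldehyde dehydrogenases, the wild type response held 0 at least 2-fold higher and 4 lower, the Clk/Clk response 1 and 1, and the Per2m/m response 2 and 4. Among them Aldh1a3, a retinaldehyde oxidising enzyme, had a wild type response of -2.83 and was lower by at least 6.22-fold on the transfected Per2m/m array, and Aldh3a1, which acts on aromatic and lipid-derived aldehydes, had a Per2m/m response of 4.63. Of 18 genes that reflect mitochondrial mass or its control, the wild type response held 3 higher and 0 lower and the Per2m/m response 5 and 2, with medians of 0.42 and 0.20. Among those counted, Ppargc1b had a wild type bound of 1.655-fold, and Ppargc1a, lower in Per2m/m cells, had no bound. Tfam, the mitochondrial transcription factor, had responses of 1.13 for wild type and 1.46 for Per2m/m.

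**Figure D5:**
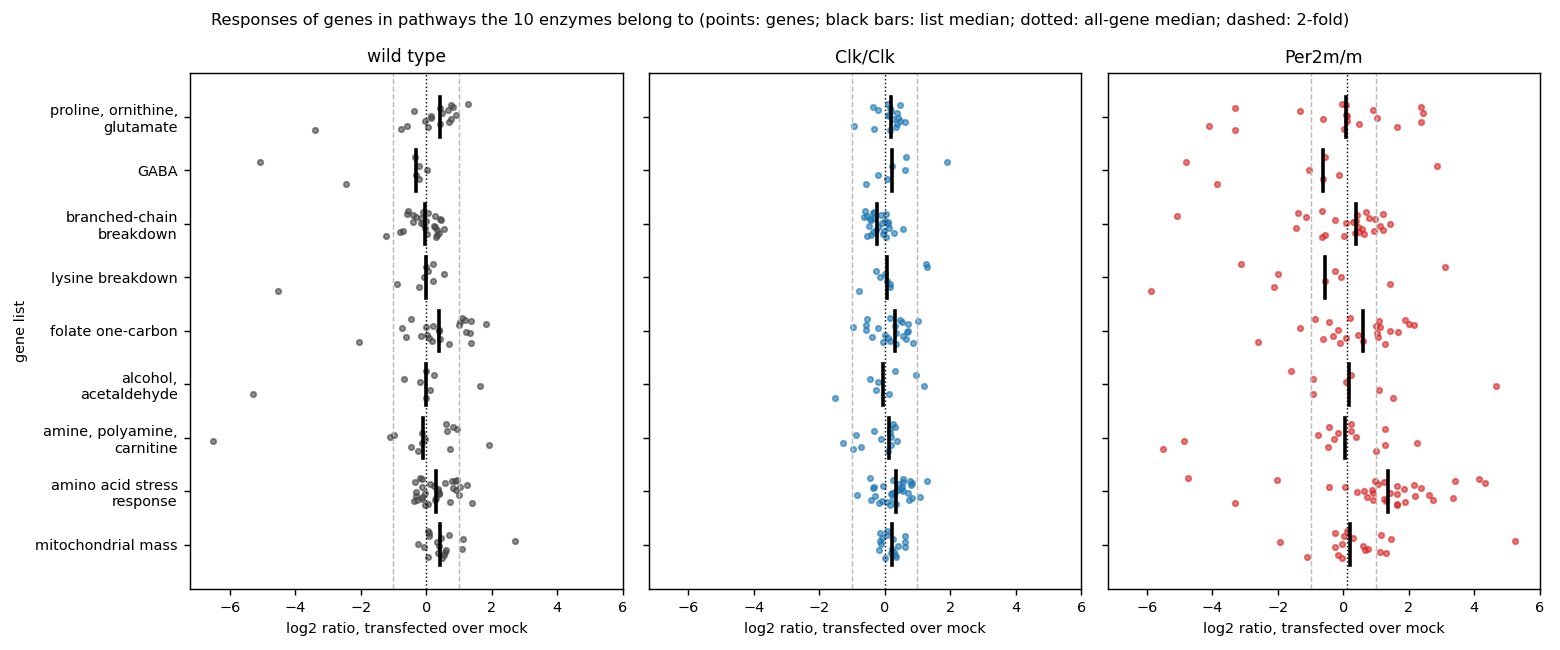
Responses (log2 ratio of transfected over mock, horizontal axis) of the genes in 9 pathway lists, with 1 point per gene at its measured value, also where 1 array was not well above background. Black bars are list medians, the dotted line is the all-gene median and dashed lines mark 2-fold. In Per2m/m cells the amino acid stress response list has a median of 1.37, while the proline, ornithine and glutamate list has 0.09.

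For members well above background on all 6 arrays, the genes with the most similar profile were found among 12653 such genes, as the smallest root mean square difference of centred levels over 6 arrays. With so few arrays a close profile is a description only. Aldh1l2 was nearest to Noa1, Bard1 and Mtrex, at 0.03, 0.10 and 0.10 (log2). Aldh2 was nearest to Rhof, Matk and Parp4, at 0.06, 0.07 and 0.08, and Aldh9a1 to Rnf220, Rbm48 and Wtap, at 0.06, 0.07 and 0.07. Aldh18a1 was nearest to Fbxo3, Adgra3 and Gm5215, at 0.04, 0.07 and 0.07, and Aldh7a1 to Myoz3, Nub1 and Tmem241, at 0.05, 0.06 and 0.07. Aldh6a1 was nearest to Acad12, Pqlc3 and AI429214, at 0.16, 0.17 and 0.18, and Aldh4a1 to Tom1l1, Tmem202 and Rflnb, at 0.20, 0.25 and 0.25. Aldh1l1 had the least similar neighbours of these 8 genes, with Ulbp1, Ccdc106 and Cd274 at 0.31, 0.43 and 0.44.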

How the data were processed

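Total RNA of 6 mouse embryonic fibroblast samples was labelled with Cy3 and read on 1 slide of Agilent arrays. The scanner files as deposited hold the linear intensity of each spot, and per the file headers Feature Extraction 10.7.1.1 made them, although version 9.5.1.1 is named in the submitters' processing notes. The authors' deposited table holds intensity with the same sorted values in every column (median 23.8), following log2 processed signal with r of at least 0.998, so its scale and direction are those of the arrays. It served as an alternative.

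Outlier spots were dropped, spots of a probe averaged, and log2 processed signal was centred on each array's 75th percentile. Probes well above background on at least 1 array were kept, and each gene was represented by the probe with the highest mean level. Of 23403 named genes 17283 passed, and 12654 were measured above background on every array. Names came from a RefSeq table (GRCm38.p6), through 27235 accessions, 3581 symbols and 565 synonyms, 1146 probes kept the name in the file, and 23154 probes stayed unnamed. Probe coordinates are those of the files (mm9). A bound sets the brighter level against whichever is higher of the dim level itself and the lowest well-measured level on that array.

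Samples were grouped by title. The additive model was fitted in R 4.3.3 by lmFit and eBayes of limma 3.58.1, with two-sided p-values adjusted by Benjamini-Hochberg over all genes (threshold 0.05). The simulated data it was tested on had a common spread for all genes and no genotype-specific response. That test cannot show how the model performs on these arrays. The p-values measure only the spread between these samples, and genotype-specific responses share the 2 residual degrees of freedom with array noise. Python 3.11.15, pandas 2.3.3 and numpy 2.4.6 read the files, and matplotlib 3.10.9 drew the plots. Alternatives were median scaling, normexp (offset 50) with quantile normalization, the authors' table, other filters on dim probes, the mean of all kept probes, a 1.5-fold size, and fits without single arrays, pairs or the genotype term. The members, pathway lists and markers were chosen with earlier results of these data known. Named genes were all 10 members, from each list up to 3 genes with the largest response of at least 2-fold in a genotype, and the 3 most similar genes of each member whose range was at least 1 (log2). The text describes some of the list genes this rule allows, not all.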

Additional observations from a re-analysis of the deposited data

Results flagged for a closer look

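Aldh1l1, cytosolic 10-formyltetrahydrofolate dehydrogenase, responded with opposite signs: -2.54 for wild type, against 1.40 for Clk/Clk and 1.17 for Per2m/m. Clk/Clk minus wild type was 3.94 and Per2m/m minus wild type was 3.71 (log2). Aldh6a1, of valine breakdown, also had opposite signs, with -1.04 for wild type and -1.14 for Clk/Clk against 1.27 for Per2m/m. Per2m/m minus wild type was 2.31 and Per2m/m minus Clk/Clk was 2.41. Aldh1b1, Aldh2 and Aldh7a1 also had responses of both signs, but none was at least 2-fold in both directions. For Aldh1b1 the responses were -2.29 for wild type and 0.53 for Clk/Clk, and Clk/Clk minus wild type was 2.82. Each response rests on 1 pair of arrays, and none of these differences was tested.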

How the results depend on the processing

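No direction of a called difference was turned by any alternative, and limma called 0 genes for transfection or either genotype under every alternative run. Some counts of members at least 2-fold apart moved by over 1.5 times, or from 0, and where no construction is named the cause was not tested. With normexp and quantile normalization the count was 2 in place of 4 for the wild type response, 1 in place of 2 for mock Clk/Clk against wild type, and 2 in place of 1 for transfected Clk/Clk against wild type. The last was 5 with median scaling and 2 in the authors' table. With the mean of all kept probes the Clk/Clk response held 1 in place of 2, since Aldh6a1 then averages both probes. Keeping only genes well above background on all 6 arrays gave 1 in place of 2 for mock Clk/Clk against wild type, since that filter drops Aldh1b1 and Aldh5a1. At a 1.5-fold size, which counts smaller differences, the number was 3 in place of 0 for mock Per2m/m against wild type and 4 in place of 1 for transfected Clk/Clk against wild type. Smaller moves were 3 in place of 4 for the wild type response (median scaling, and the filter on all 6 arrays), 9, 6 and 5 in place of 7 for the Per2m/m response (median scaling, normexp, and that filter), and 4 in place of 6 for transfected Per2m/m against wild type (that filter). Of the log2 differences of single genes recomputed under alternatives, 336 moved by less than the software error of the ratio and 70 by more. These counts include the other filters on dim probes and the mean of all kept probes. Those alternatives keep the same level for most members, so such differences could not move, and the 336 overstates how stable the values were. Without the transfected Per2m/m array the limma coefficients for transfection of Aldh1b1, Aldh5a1 and Aldh9a1 were -0.88, -0.19 and 0.42, and without the transfected Clk/Clk array, a choice made after seeing the data, they were -3.73, -4.47 and 1.14, in place of -2.31, -3.06 and 0.82. The fit compares mock with transfected cells within genotype, and without the genotype term limma also called 0 genes. The labels give no replicate numbers to pair by. Probe signals near background limit Aldh1b1 and Aldh5a1 on the transfected Per2m/m array to bounds, which hold for the main scaling only. The limma coefficients of both genes use those signals. With normexp and quantile normalization their coefficients for transfection were -1.01 and -1.76.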
